A study of Mus musculus with 17 samples.

Results

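The genes described here are those that encode the proteins of the cytosolic ribosome, chosen by name from the deposited count tables. A gene was taken as a member when its mouse symbol was Rplp0, Rplp1, Rplp2 or Rpsa, or Rpl or Rps followed by a number and at most 1 of the letters a, x, y and l, provided that it is annotated as protein-coding; Rps27l was left out. This gave 79 members among 49585 genes, 49 of the large (60S) subunit and 30 of the small (40S) subunit. All but 3 of them, 76, had at least 10 counts in every library. The 3 others, Rpl10l, Rpl39l and Rpl3l, are tissue-restricted paralogs of Rpl10, Rpl39 and Rpl3.

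RNA was sequenced from endothelial cells sorted out of mouse bone marrow as CD45-, Ter119-, CD31+ and Sca1+ cells (the series' design text gives the gate without Sca1). Animals were wild type (WT) or carried Cdh5:CreERT2, a tamoxifen-inducible Cre recombinase under the promoter of the endothelial cadherin gene, together with Eng f/f alleles whose exons 5 and 6 lie between loxP sites (KO). Every animal, WT included, is labelled as tamoxifen-injected; induction was at 8 weeks of age, and libraries stand for 2 or 4 weeks after it. The labels do not say whether WT animals carried the Cre transgene. There were 4 WT (2 female, 2 male) and 4 KO libraries (2 female, 2 male) at 2 weeks, and 5 WT (2 female, 3 male) and 4 KO libraries (1 female, 3 male) at 4 weeks, named below by sex and number as in their titles. Levels are given as CPM, the gene's counts scaled to a common library total, and a fold change is on the log2 scale with its standard error (SE).

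Each ribosome joins a small subunit, which decodes the messenger RNA, to a large subunit, which forms the peptide bond, and each subunit is a ribosomal RNA scaffold dressed with many different proteins that are mostly needed in 1 copy each. Most ribosomal protein messages belong to the class with a 5′ terminal oligopyrimidine tract (TOP), a cytidine at the cap followed by an unbroken run of C and U through which mTOR and LARP1 control their translation and stability. In bone marrow the genes are best known from Diamond-Blackfan anaemia, in which loss of 1 copy of RPS19 or of another ribosomal protein gene impairs red cell production.

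The starts of 5 members show this shared feature, and they are printed because TOP runs are what most members are known to have in common beyond their protein products. Each line holds 30 bases of RefSeq sequence (GRCm38.p6), 15 before the annotated start and 15 from it on, with the pyrimidine run in capitals. Rps6 (chr4:86857353-86857382, minus strand) encodes the kinase substrate of the small subunit, Rps27 (chr3:90213634-90213663, minus) the member with the highest level per length in WT at 4 weeks, Rps18 (chr17:33955651-33955680, minus) a small subunit protein, Rplp2 (chr7:141447636-141447665, plus) a protein of the acidic stalk, and Rpl28 (chr7:4792950-4792979, plus) a large subunit protein.
Rps6: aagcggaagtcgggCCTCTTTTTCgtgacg
Rps27: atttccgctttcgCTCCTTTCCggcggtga
Rps18: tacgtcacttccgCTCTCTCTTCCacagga
Rplp2: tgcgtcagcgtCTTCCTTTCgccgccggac
Rpl28: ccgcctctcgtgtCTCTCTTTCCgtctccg

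The RefSeq promoter table held 59 of the 79 members. A C within 5 bases of an annotated start followed by at least 4 bases that are each C or T was present in 27 of these 59, 45.8%, against 21.2% of all 27025 genes in the table and 24.6% of 69 genes of mitochondrial ribosomal proteins. The motif CCGGAAG, on either strand of the 300-base promoter, was present in 40.7% of members, 37.7% of mitochondrial ribosomal protein genes and 9.93% of all genes; ATGGCG was present in 30.5%, 27.5% and 10.2%. Such matches describe the annotated starts, and a start set a few bases away hides a run from the search. Rps19 (GRCm38 chromosome 7, 24884371 to 24889806), the best known of the disease genes, has 3 annotated starts, none with a run.

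The libraries held 20477400 to 40882700 counts. Eng, the deleted gene, was at 705 to 1307 CPM in WT and 225 to 347 CPM in KO at 2 weeks, and at 2400 to 2735 CPM in WT and 873.5, 321.6, 1647 and 273.9 CPM in KO f2, m1, m2 and m3 at 4 weeks. KO m2 of 4 weeks was thus nearest to WT, and it had the highest share of counts in members at that time. The mitochondrial genome's genes made up 22.2% to 29.5% of the reads counted at 2 weeks, against 4.66% to 8.99% at 4 weeks. Genes with a count numbered 10886 to 13583 at 2 weeks and 15996 to 21235 at 4 weeks. The defining markers of endothelium were present in all libraries, with 6 markers summing to 3506 to 4492 CPM at 2 weeks and 7371 to 9207 CPM at 4 weeks. Neutrophil markers (8 genes) summed to 4025 CPM in KO m2 and 3122 CPM in KO m3 of 2 weeks and to at most 237.5 CPM in every other library. Erythroid markers (7 genes) summed to 61.4 to 232.6 CPM in WT and 277.8 to 1251 CPM in KO at 2 weeks, and to 165 to 1292 CPM in WT and 619.4 to 2904 CPM in KO at 4 weeks. In bulk samples fewer cells of a type and less RNA per cell cannot be told apart.

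Together the members took 3.59% to 6.86% of a library's counts, with a higher mean share in KO than in WT at either time and a lower one at 4 than at 2 weeks. At 2 weeks the share was 5.11%, 4.94%, 5.13% and 4.89% in WT f1, f4, m2 and m3, and 6.86%, 5.76%, 5.33% and 5.84% in KO f1, f4, m2 and m3. The groups did not overlap; KO f1 was highest. At 4 weeks the share was 3.59%, 3.68%, 4.39%, 3.97% and 4.09% in WT f, f3, m1, m2 and m3, and 4.57%, 4.35%, 5.05% and 4.44% in KO f2, m1, m2 and m3. Here KO m1 lay just below WT m1 and all other KO libraries lay above all WT libraries. The group means were 5.02% ± 0.121 (SD, n = 4) and 5.95% ± 0.646 (SD, n = 4) at 2 weeks, and 3.94% ± 0.321 (SD, n = 5) and 4.61% ± 0.31 (SD, n = 4) at 4 weeks. No test is given for a sum over genes chosen with these results known.

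**Figure D1:**
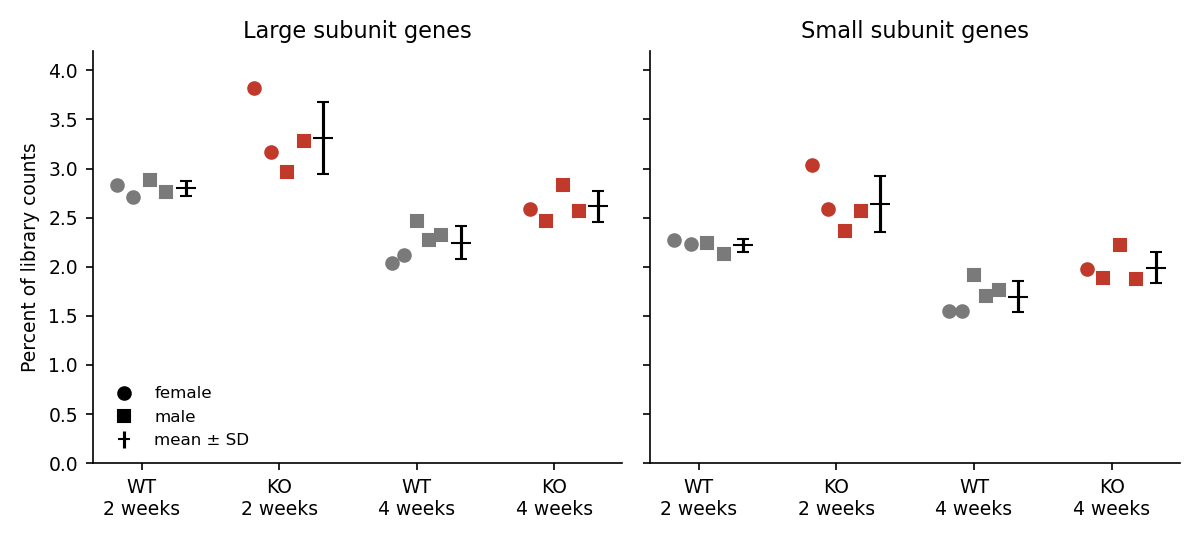
Percent of each library's counts in large subunit (left) and small subunit (right) ribosomal protein genes, by genotype and weeks after tamoxifen; circles are female and squares male libraries, and bars are the mean ± SD of a group. Both panels show the same order of group means, with KO above WT within a time and 4 weeks below 2 weeks, and single libraries of KO and WT overlap at 4 weeks.

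Both subunits had a higher mean share in KO than in WT at either time. At 2 weeks the large subunit's members held between 2.71% and 2.89% of a WT library and between 2.97% and 3.82% of a KO library. For the small subunit these shares were 2.13% to 2.27% and 2.37% to 3.04%. At 4 weeks the large subunit's share was between 2.04% and 2.47% in WT and between 2.47% and 2.83% in KO, and the small subunit's was 1.55% to 1.91% and 1.88% to 2.22%. The log2 ratio of large to small subunit counts was 0.34 ± 0.04 (SD, n = 4) in WT and 0.32 ± 0.03 (SD, n = 4) in KO at 2 weeks, and 0.41 ± 0.03 (SD, n = 5) and 0.40 ± 0.04 (SD, n = 4) at 4 weeks. KO and WT differed in it by -0.01 at either time, less than the spread between libraries of a group. No test of the ratio is given, since it is a score over the members. The ratio was 0.07 higher at 4 than at 2 weeks in both genotypes, with overlapping ranges of libraries (0.28 to 0.38 at 2 weeks, 0.35 to 0.45 at 4 weeks).

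Levels can be compared between members only per length, here as CPM per kilobase of the principal annotated transcript. In WT at 4 weeks Rps27 was highest at 2333 CPM per kb, followed by Rps14 at 2016, Rpl32 at 1803, Rpl13 at 1788 and Rps19 at 1700. Among the 76 members detected in every library the 90th percentile was 4.09 times the 10th in WT at 4 weeks, and 5.38 times in WT at 2 weeks. With all annotated exons of a gene as its length the ratio in WT at 4 weeks was 6.8, so the levels per length depend on the transcript taken. The level at the middle of the list was 738.1 CPM per kb in WT and 881.6 in KO at 2 weeks, and 605.8 and 664.5 at 4 weeks. Some of the highest members kept their place and others did not: Rps14 ranked first at 2 weeks in both genotypes and second at 4 weeks, and Rps27 ranked behind Rps14 and Rpl13 in WT and behind Rps14 in KO at 2 weeks, and first at 4 weeks. Rplp0 ranked 4th in WT and 5th in KO at 2 weeks, and 10th and 9th at 4 weeks. Rpl5, which with Rpl11 and 5S RNA forms the particle that holds MDM2, ranked 73rd in WT at either time.

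**Figure D2:**
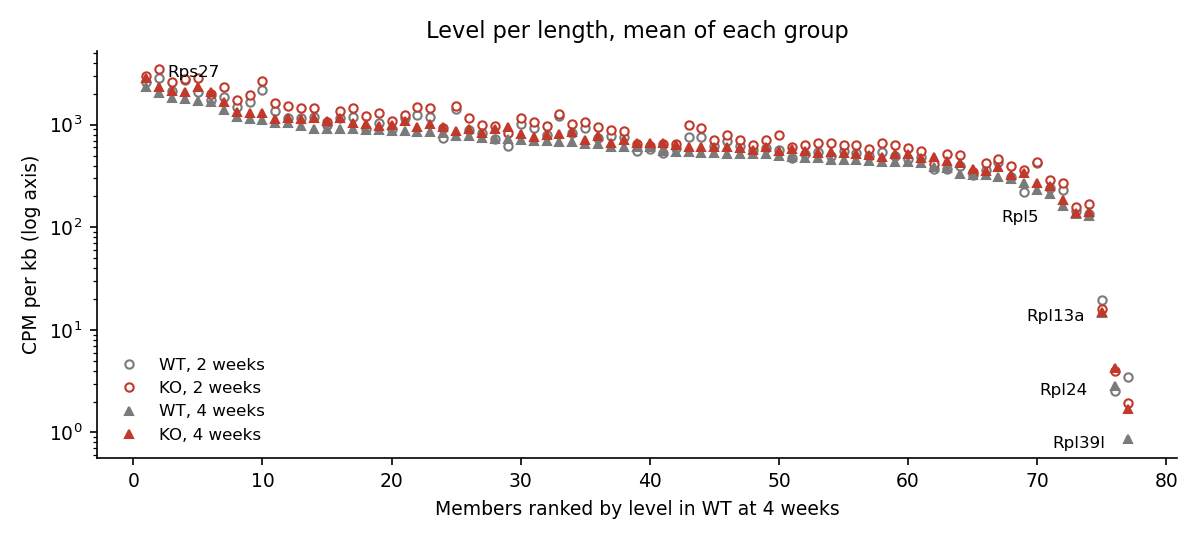
Mean level per length of each member in the 4 groups, on a log axis, with members ordered by their level in WT at 4 weeks. Members down to Rpl12 lie between 128 and 2333 CPM per kb in that group; Rpl13a, Rpl24 and Rpl39l stand far below, and Rpl3l and Rpl10l, with under 0.5 CPM per kb in that group, are not drawn.

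A pair of general members stood far below the others. Rpl24 had 1 to 6.82 CPM over the 17 libraries and Rpl13a had 10 to 29.9 CPM, while Rpl5, a member of low level per length, had 233 to 373.8 CPM. In the annotation used here 71.5% of the Rpl24 transcript (chromosome 16, 55966275 to 55971435, plus strand) is also exon of Gm28037, and 59.3% of the Rpl13a transcript (chromosome 7, 45125558 to 45128761, minus strand) is exon of Gm45713, both on the same strand. Both of these genes are in the count tables, with 0 counts in every library. Rps10 has 91.6% of its transcript in a gene that is not among those of the tables used here, and had 271.7 to 499.7 CPM. How the counting program treated reads that lie in exons of more than 1 gene, or its strand setting, is not given in the sources used here, so the levels of Rpl24 and Rpl13a are uncertain. On the opposite strand Tlcd1 overlaps 55.4% of Rpl23a, and its counts were 0.886 ± 0.0148 (SD, n = 17) times those of Rpl23a in each library; Wdr38 overlaps 68.3% of Rpl35 at a ratio of 0.776 ± 0.0247 (SD, n = 17). Fam69a likewise overlaps 46.6% of the Rpl5 transcript on the opposite strand, at a ratio of 0 to 0.25. Without a known strand setting the reads of such pairs cannot be told apart. The tables also hold 274 pseudogenes named for 58 of the members, which summed to 349.6 to 636.5 CPM in a library; reads shared between them and the members were not tested.

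The tissue-restricted paralogs were at or near 0. Rpl10l, a testis paralog of Rpl10, had 0 counts in all 17 libraries, which allows up to 0.0734 to 0.147 CPM; Rpl10 itself had 478 to 1022 CPM. Rpl39l, a paralog of Rpl39, had 0 counts in 7 libraries and at most 5.70 CPM, in WT f4 of 2 weeks. Rpl3l, known from heart and skeletal muscle, had 687 counts (25.7 CPM) in KO f1 of 2 weeks, 13 counts in WT f of 4 weeks, 1 count in WT m3 of 4 weeks and 0 counts in the other 14 libraries. The general counterparts were abundant, with 807.4 to 1557 CPM for Rpl3, 83.7 to 206.3 CPM for Rpl39 and 583.3 to 1240 CPM for Rps4x. Rps4l, a paralog of Rps4x, is annotated as a transcribed pseudogene and therefore is no member; it had 42.7 to 143.6 CPM.

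The comparison of KO with WT at 2 weeks asks how loss of Endoglin in endothelium changes expression early after deletion. No member passed the test: 0 of 76 members tested had an adjusted p under 0.05 in edgeR's quasi-likelihood test with Benjamini-Hochberg adjustment, as did 0 of all 10477 genes (0.0%). Eng itself, at means of 1053 CPM in WT and 274.3 CPM in KO, was not called either. A gene not called in this test can therefore still differ between the genotypes. By fitted value, 75 of 76 members were higher in KO, compared with 46.9% of all genes tested. The median log2 fold change of the members was 0.26, with 0.26 for 46 large subunit and 0.26 for 30 small subunit members, beside -0.06 for all genes tested. With an unadjusted p under 0.05, 18 members were higher and 0 lower, where 1.16% of all genes were higher and 1.47% lower; this count fell to 8 without KO m3 and to 10 without WT m2, and was 30 without KO m2. It was also 37 with upper quartile scaling and 9 with at least 10 counts demanded in every library. All KO libraries lay above all WT libraries for 10 of the 76 members and for 1.58% of all genes, and below for 0 members and 1.78% of all genes. DESeq2, with 28 members and 508 of all 10477 genes higher at an unadjusted p under 0.05, put 3 of the members past the adjusted threshold, as it did 0.515% of all genes: Rps19, Rpl17 and Rps24.

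Rps19, a small subunit protein needed for maturation of 18S RNA, had the smallest p of the members at either time. At 2 weeks it had 1496, 1424, 1216 and 1106 CPM in WT f1, f4, m2 and m3, and 2274, 1795, 1545 and 1600 CPM in KO f1, f4, m2 and m3. Every KO library lay above every WT library. The log2 fold change was 0.46 (SE 0.0881), with an adjusted p of 0.964 in edgeR and 0.000133 in DESeq2. At 4 weeks it had 1053, 962, 1196, 1024 and 1145 CPM in WT f, f3, m1, m2 and m3, and 1542, 1427, 1544 and 1341 CPM in KO f2, m1, m2 and m3. Again the groups did not overlap. The log2 fold change was 0.45 (SE 0.102), with an adjusted p of 1 in edgeR. With 1 library left out at a time the change ran from 0.41 to 0.52 at 2 weeks and from 0.37 to 0.50 at 4 weeks. The tables hold 14 pseudogenes named for Rps19, and reads shared with them were not tested.

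Rpl17, a protein at the exit of the large subunit's peptide tunnel, had the highest fitted change of the members at 2 weeks. It had 154.2, 174.1, 165.3 and 197.4 CPM in WT f1, f4, m2 and m3, and 333.3, 250.6, 239.1 and 287.8 CPM in KO f1, f4, m2 and m3. The groups did not overlap, and KO was higher by 0.68 (SE 0.174, adjusted p = 1 in edgeR, 0.0155 in DESeq2) on the log2 scale. At 4 weeks it had 176.5 to 234.3 CPM in WT and 238.4 to 293.8 CPM in KO, again without overlap, and the fitted change was 0.32 (SE 0.127, adjusted p = 1 in edgeR). Rps24, a further small subunit protein of the anaemia group, had 828 to 888.1 CPM in WT and 986 to 1042 CPM in KO at 2 weeks. Its log2 fold change was 0.26 (SE 0.075, adjusted p = 1 in edgeR, 0.0469 in DESeq2), the narrowest error among the 3 genes that DESeq2 called.

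The lowest fitted value at 2 weeks was that of Rpl13a, at -0.29 (SE 0.857), with 13.3 to 29.9 CPM in WT and 10 to 23.8 CPM in KO. Its ranges overlapped, and the value ran from -0.57 to -0.04 with 1 library left out. Rpsa, the laminin receptor precursor and a small subunit protein, was at 543.6 to 795 CPM in WT and 608.5 to 824.6 CPM in KO, with a log2 fold change of 0.04 (SE 0.145). Rpl5 was at 0.12 (SE 0.161; 0.00199 to 0.22 with 1 library left out) and Rpl11, its partner in the 5S particle, at 0.32 (SE 0.156). The stalk genes Rplp0, Rplp1 and Rplp2 were at 0.25 (SE 0.108), 0.31 (SE 0.126) and 0.31 (SE 0.115), and Rps6, the S6 kinase substrate, at 0.21 (SE 0.129). Each of these had an adjusted p of 1 in edgeR. All 10 members of the Diamond-Blackfan anaemia list were higher in KO by fitted value at 2 weeks, with a median of 0.31. Of these 5 had an unadjusted p under 0.05, and 0 of 10 passed the adjusted threshold in edgeR, while DESeq2 called Rps19 and Rps24.

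Markers of other cells moved with genotype in the same libraries. At 2 weeks the neutrophil sums of KO m2 and m3 were above those of all other libraries, and all KO erythroid sums were above all WT ones. Stromal markers (5 genes) summed to 1461 to 1965 CPM in WT and 1124 to 1401 CPM in KO, without overlap, KO being lower, with 4 of 5 markers below 0 in the fit. Most of this sum was Cxcl12 (means of 1247 CPM in WT and 962 CPM in KO) and Kitl (387 and 249 CPM). Lepr (5.71 and 20 CPM) and Pdgfrb (4.35 and 6.31 CPM) had higher means in KO, and Col1a1 was at 34.6 and 34.4 CPM. Without KO m2 and m3 the median log2 fold change of the members was 0.31, with 70 of 77 members above 0. Within the males it was 0.23 (72 of 77) and within the females 0.29 (70 of 76), each with 2 against 2 libraries. The number of members higher at an unadjusted p under 0.05, 18 in the full set, was 9 without KO m2 and m3, 2 in the males and 0 in the females. The part of erythroid and of stromal RNA in the result was not tested.

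**Figure D3:**
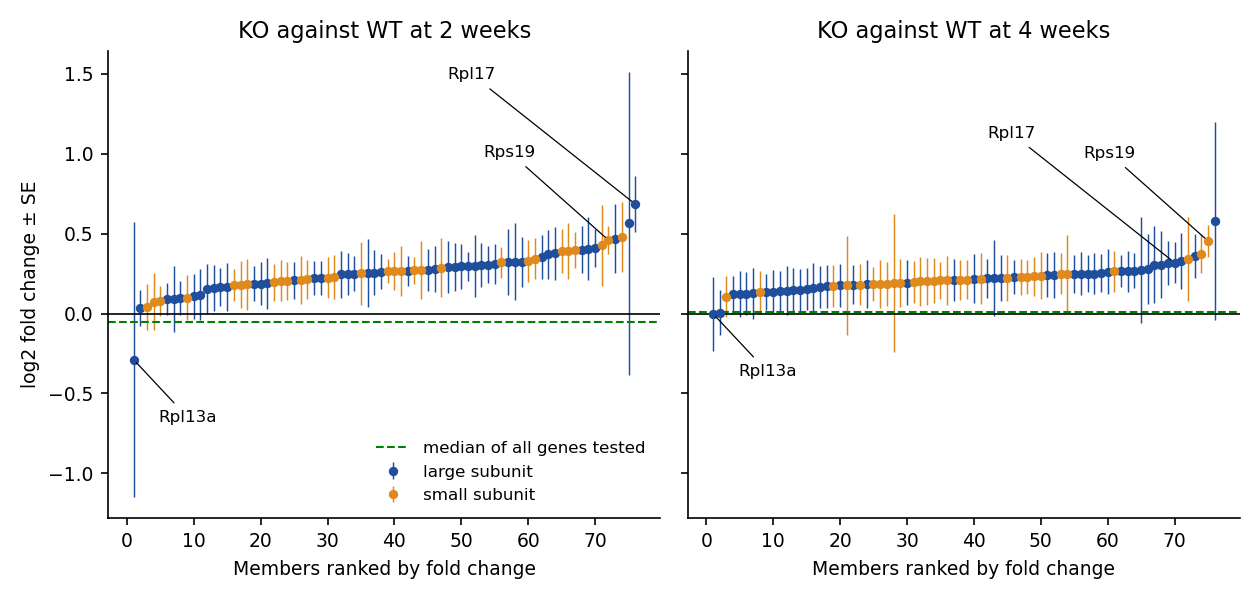
Fitted log2 fold change of KO against WT for the 76 members tested at 2 weeks (left) and 4 weeks (right), each panel ranked on its own; bars are the SE, colours mark the subunit, and the dashed line is the median of all genes tested. In both panels 75 of 76 members lie above 0, with Rpl13a lowest.

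At 4 weeks the comparison asks the same question later after deletion. Again 0 of 76 members passed the adjusted threshold, as did 0 of all 15209 genes (0.0%), and DESeq2 called 0 of 76, with 6 members and 312 of all genes higher at an unadjusted p under 0.05 and 0.0723% of all genes called higher. Eng, at means of 2587 CPM in WT and 779.1 CPM in KO, was again not called in edgeR. By fitted value 75 of 76 members were higher in KO, compared with 51.3% of all genes tested. The median log2 fold change was 0.21, with 0.22 for large and 0.21 for small subunit members, beside 0.01 for all genes. With an unadjusted p under 0.05, 7 members were higher and 0 lower, where 1.3% of all genes were higher and 1.47% lower. That count was 1 without KO f2, 2 without WT m2 or KO m2, 3 without WT f, 13 without KO m3 and 15 without KO m1, and it was 16 with voom and 3 with at least 10 counts demanded in every library. Without KO m2, the library with the most Eng left, the median was 0.19 with 74 of 76 members above 0. In the males alone, 3 against 3, the median was 0.14, with 74 of 77 members above 0 and 1 higher at an unadjusted p under 0.05.

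Groups did not overlap for 3 of 76 members at 4 weeks, all higher in KO, against 0.664% of all genes that were higher and 0.526% that were lower. Rps19 and Rpl17, described above, were among them, and the same 3 genes were also without overlap at 2 weeks. Rps18, a head protein of the small subunit, had 0.37 (SE 0.122) and Rpl23, a large subunit protein that also binds MDM2, 0.26 (SE 0.101) at 4 weeks, both with an adjusted p of 1 in edgeR. In these genes 1 WT library reached into the KO range: Rps18 had 478.7 to 506.6 CPM in 4 WT libraries, 597.3 CPM in WT m3 and 578.9 to 755.9 CPM in KO.

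The other members named for their roles lay below Rps19 and Rps18 at 4 weeks. The stalk genes Rplp0, Rplp1 and Rplp2 were at 0.25 (SE 0.133), 0.25 (SE 0.117) and 0.18 (SE 0.122), Rps6 at 0.22 (SE 0.144), Rpsa at 0.22 (SE 0.159) and Rps27a, a ubiquitin fusion, at 0.19 (SE 0.149). Rpl5 was at 0.01 (SE 0.14), next to Rpl11 at 0.25 (SE 0.126), and Rpl13a was at 0.00 (SE 0.231). The direction of Rpl5 and of Rpl13a at 4 weeks changed under several other settings, scalings among them, so neither has a direction. Over the 10 anaemia genes the median was 0.21 with 0 of 10 called. The erythroid marker ranges of KO and WT overlapped at this time, with 7 of 7 markers above 0 in the fit, a median of 1.62 and 2 with an unadjusted p under 0.05. Of the neutrophil markers 7 of 7 tested (median 0.33) and of the megakaryocyte markers 3 of 3 (median 0.69) were also above 0, and their part in the result was not tested; megakaryocyte sums were at most 37.8 CPM and neutrophil sums were at most 100.2 CPM in every 4-week library.

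Whether the KO effect differed between the times was tested directly in all 17 libraries. Of 77 members 0 were called, where 0.0637% of all 15703 genes were called higher and 0.0127% lower, and 0 members had an unadjusted p under 0.05, where 5.15% and 4.66% of all genes did; DESeq2 also called 0 members, where it called 4.39% of all genes higher and 3.91% lower. The median difference was -0.06, beside 0.03 for all genes; it ran from -0.124 to -0.00465 with 1 library left out and was 0.00697 with voom, so it has no direction. The smallest p belonged to Rpl17, with a difference of -0.38 (SE 0.198, adjusted p = 0.593 in edgeR), followed by Rpl26 at -0.24 (SE 0.169), Rpl13 at 0.20 (SE 0.143) and Rpl28 at -0.25 (SE 0.179). Rpl39l, with few counts, was at 3.65 (SE 3.71). For Rps19 the difference was 0.00 (SE 0.126).

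Between the times many but not all members passed the test, each of them lower at 4 weeks. In WT, 43 of 77 members were lower at 4 than at 2 weeks and 0 higher, 20 of 47 of the large and 23 of 30 of the small subunit, while 1.88% of all 15703 genes were called lower and 5.03% higher. In KO, 47 of 77 were lower and 0 higher, 23 of the large and 24 of the small subunit, against 1.49% and 4.84% of all genes. The median log2 fold change of the members was -0.54 in WT (large -0.49, small -0.58) and -0.60 in KO (large -0.57, small -0.68), beside 0.42 and 0.49 for all genes tested. Both genotypes called 42 of the members, and 48 were called in at least 1. Across the 17 fits without 1 library the number called was between 30 and 46 in WT and between 34 and 49 in KO. DESeq2 called 48 lower in WT, with 3.61% of all genes, and 49 in KO, with 3.3%. The fitted value was below 0 for 77 of 77 members in both genotypes, against 36.5% of all genes in WT and 35.6% in KO.

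Among members past the threshold Rplp0, the scaffold of the acidic stalk on which translation factors dock and a gene often used as a reference in RT-PCR, fell furthest. It had 3301, 2718, 2975 and 2941 CPM in WT f1, f4, m2 and m3 of 2 weeks, and 1485, 1460, 1355, 1541 and 1727 CPM in WT f, f3, m1, m2 and m3 of 4 weeks. In KO it had 4393, 3729, 3079 and 3130 CPM at 2 weeks and 1886, 1441, 1794 and 1977 CPM at 4 weeks. All libraries of 2 weeks lay above all libraries of 4 weeks. The log2 fold change was -1.28 (SE 0.11, adjusted p = 1.49e-05 in edgeR) in WT and -1.29 (SE 0.119, adjusted p = 3.91e-05) in KO. The other stalk genes fell by less, Rplp1 by 0.75 and Rplp2 by 0.72 on the log2 scale in WT.

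Rps2, a protein at the messenger entry of the small subunit, fell by 1.19 (SE 0.144) in WT and by 1.11 (SE 0.155) in KO on the log2 scale. Its levels were 1435 ± 80.1 CPM (SD, n = 4) in WT at 2 weeks and 774.3 ± 102 CPM (SD, n = 5) at 4 weeks. Rpsa, which binds Rps2 in the small subunit, had 676.6, 795, 543.6 and 700 CPM in WT f1, f4, m2 and m3 at 2 weeks and 320.2 to 424.5 CPM in WT at 4 weeks, without overlap. Its change was -1.17 (SE 0.148) in WT. In KO it was -0.99 (SE 0.16), with KO m3 of 4 weeks, at 541.9 CPM, the highest library of its group. In WT Rpl13 was at -0.90 (SE 0.0976), and in KO Rps12 was at -1.04 (SE 0.141) and Rpl8 at -0.98 (SE 0.14), all with an adjusted p under 0.05 in edgeR. Rps19 fell by 0.57 in either genotype.

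The members not called in either genotype included the 9 of shortest coding length, Rpl24 and Rpl13a, and others such as Rpl7a, at -0.24 (SE 0.131) in WT and -0.07 (SE 0.139) in KO. Rps28 was at -0.13 (SE 0.265) in WT and -0.20 (SE 0.287) in KO, and Rpl24 at -0.15 (SE 0.763) and -0.20 (SE 0.852). Rpl17 was at -0.04 (SE 0.135) in WT and at -0.42 (SE 0.145, adjusted p = 0.0964 in edgeR) in KO. Rpl11 was at -0.28 (SE 0.129) and -0.37 (SE 0.138), and Rpl5 at -0.42 (SE 0.142) and -0.52 (SE 0.153), none past the threshold.

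**Figure D4:**
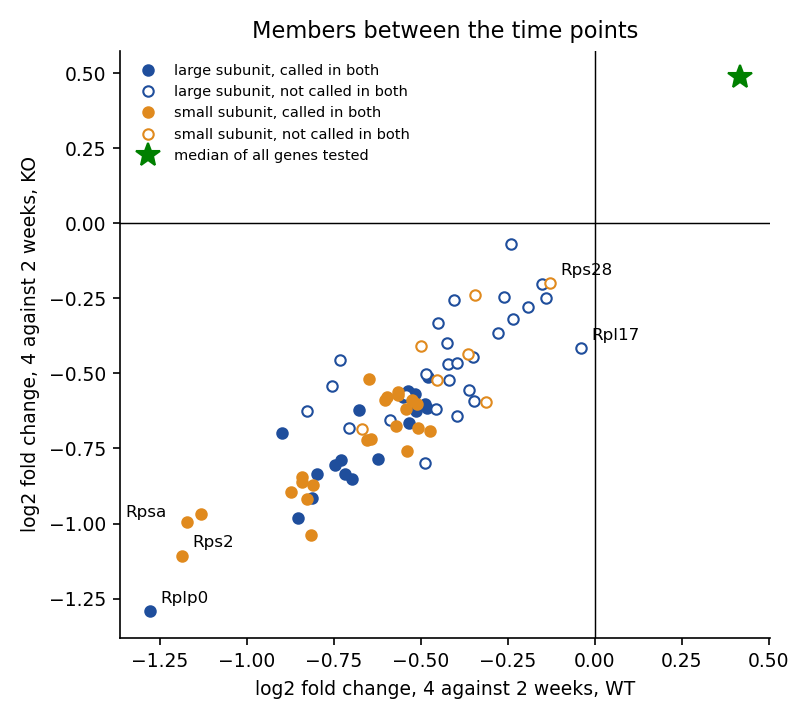
Log2 fold change of 4 against 2 weeks in WT (x axis) and KO (y axis) for 76 of the 77 members tested, Rpl39l being left out for its low counts; filled symbols passed the adjusted threshold in both genotypes, and the star is the median of all genes tested. All members lie below 0 on both axes, Rplp0 lowest, while the median gene lies above 0.

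The time label cannot be told apart from any other difference between the 2 sets of libraries. With mitochondrial genes taken out of the library total, the members' share was 6.7% ± 0.227 (SD, n = 4) in WT at 2 weeks and 4.23% ± 0.361 (SD, n = 5) at 4 weeks, so the ratio of 4 to 2 weeks was 0.631, lower than the 0.786 of the full total. In KO these ratios were 0.616 and 0.774. With at least 10 counts demanded in every library the median of all 4987 genes was 0.0025 in WT and -0.02 in KO, and that of 76 members -0.43 and -0.53. Of these members 30 were called lower in WT and 41 in KO, next to 329 and 321 of all genes. Endothelial markers were higher at 4 weeks, with 3 of 6 called in each genotype. Erythroid markers had medians of 1.71 in WT (6 of 7 above 0) and 1.29 in KO (7 of 7), and neutrophil markers of -0.34 in WT (4 of 8 below 0) and -4.69 in KO (8 of 8, 1 called). The part of these cells' RNA in the members' values was not tested.

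Other gene lists of translation and ribosome assembly differed in how many of their genes were called between the times. Among 15 translation factors and other genes of known TOP messages, 11 were called lower at 4 weeks in WT and 10 in KO, and 0 higher, with medians of -0.78 and -0.84. Eef2, which drives translocation, was at -1.09 (SE 0.117) in WT, Eef1a1, which delivers aminoacyl-tRNA, at -1.14 (SE 0.153) and Rack1, a scaffold on the small subunit, at -0.99 (SE 0.0914). Of 77 mitochondrial ribosomal protein genes tested, 1 was called lower in WT and 0 in KO, with medians of -0.11 and -0.16. Of 30 genes of ribosome assembly 1 was called lower in WT and 0 in KO, with medians of 0.20 and 0.44, and of 18 genes of the mTOR and LARP1 pathway 0 were called in WT and 1, higher, in KO. Among 10 ribosomal protein genes or paralogs that the naming rule passes over, 2 were called lower in each genotype: Rps3a1, which fell by 0.94 on the log2 scale in WT, and Fau, which fell by 0.73. The KO effects in the same lists were called for 0 genes at either time, with medians at 2 and 4 weeks of 0.12 and 0.12 for the TOP list, 0.17 and 0.12 for the mitochondrial list, -0.16 and -0.0045 for assembly, and 0.27 and 0.19 for the genes outside the naming rule, of which 9 were tested at 2 weeks.

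Members with and without a pyrimidine run at their annotated start had close values, and no test of the difference was made. At 4 against 2 weeks 14 of 27 members with a run and 15 of 30 without were called lower in WT, with medians of -0.53 and -0.57. In KO 16 of 27 and 18 of 30 were called, with medians of -0.59 and -0.62. For KO against WT, with 27 and 29 members tested, the medians were 0.26 and 0.27 at 2 weeks and 0.21 and 0.23 at 4 weeks. These are descriptions of the runs printed above for Rps6, Rps27, Rps18, Rplp2 and Rpl28 and of their counterparts in the table.

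Among themselves the members varied by coding length at 4 weeks. The 9 detected members with under 300 coding bases (Rpl41, Rpl39, Rps29, Rps28, Rpl38, Rps21, Rps27, Rpl37a and Rpl37, grouped after their values were seen) had a median SD over libraries of 0.44 in WT and 0.53 in KO of log2 CPM at 4 weeks, against 0.18 in both for the longer ones. At 2 weeks the medians were 0.18 and 0.16 in WT and 0.30 and 0.21 in KO. Rps29, which binds zinc in the small subunit, had 264.3, 149.2, 394.2, 393 and 121.2 CPM in WT f, f3, m1, m2 and m3, and 179.8, 544.6, 432.3 and 164.4 CPM in KO f2, m1, m2 and m3. WT m1 and m2 and KO m1 and m2 were high, WT f3 and m3 and KO f2 and m3 low, and WT f between them. Across the members the fitted KO effect also ran with coding length, with a Spearman rho of -0.45 at 2 weeks and -0.24 at 4 weeks over 76 members, which share their libraries; these are descriptions, with no test.

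As a group the 9 short genes, Rps29 among them, had the same high and low libraries as Rps29, though not the same order within these sets. They took 8.52%, 6.02%, 9.81%, 9.68% and 5.80% of the members' counts in WT f, f3, m1, m2 and m3, and 6.71%, 12.8%, 9.08% and 5.93% in KO f2, m1, m2 and m3. Stromal markers (5 genes) summed to 2706 to 3612 CPM in the 5 libraries where the short genes took over 8% and to 1116 to 1551 CPM in the other 4. The first set held 3 WT and 2 KO libraries. Most of the stromal sum was again Cxcl12 and Kitl, with means of 1956 and 579.5 CPM in WT, beside 45.4 CPM for Lepr, 29.2 for Pdgfrb and 28.9 for Col1a1. Erythroid markers also differed, summing to 1121, 1292, 2487 and 1441 CPM in WT f3 and m3 and KO f2 and m3. They summed to 250.6, 279.1, 165 and 619.4 CPM in WT f, m1 and m2 and KO m1, but to 2904 CPM in KO m2. Stromal markers were also lower in KO by fitted value at 4 weeks, 5 of 5 with a median of -0.90, and 2 of them had an unadjusted p under 0.05. With the log2 stromal sum as a term in the 4-week fit, a choice made after the values were seen, the median KO effect of the members was 0.19 with 74 of 76 above 0, and 20 members rather than 7 were higher at an unadjusted p under 0.05. The part of stromal or of erythroid RNA in the share of the short genes was not tested.

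**Figure D5:**
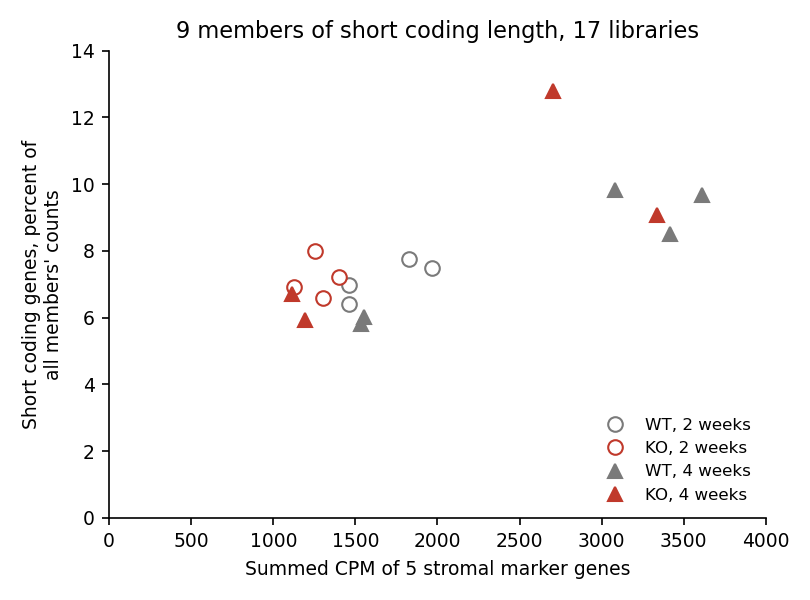
Percent of the members' counts that fell on the 9 genes of short coding length (y axis) against the summed CPM of 5 stromal markers (x axis), 1 point per library; open symbols are 2 weeks and filled ones 4 weeks. Most of the stromal sum is Cxcl12 and Kitl. The 4-week libraries form separate sets, so no correlation is given, and the 2-week libraries lie between 6.4% and 7.99%.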

How the data were processed

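Per the labels' protocols, RNA of sorted cells was amplified with SmartSeq2, which has no molecular identifiers. The deposited values are raw read counts per gene, 1 table per library; the submitters' processing notes name cutadapt, STAR, HTSeq 0.6.1p1, GRCm38 and mm10 without giving roles, and the strand setting is not given in the sources used here. Floors (3 counts) cover counting error only, and p-values measure the spread between these libraries, whose titles give a sex and number but no pooling or litter.

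Symbols, biotypes, positions and lengths came from GENCODE M21 (GRCm38), which matched 49326 of 49585 identifiers. Genes were kept by filterByExpr, scaled by TMM and tested with edgeR 4.0.16 in R 4.3.3 (quasi-likelihood, robust), each time with sex and genotype as terms, and all 17 libraries with a mean per group and sex for the other contrasts; p-values were adjusted by Benjamini-Hochberg over all genes, with a threshold of 0.05. Fits were tested on simulated data. Named are, per comparison and direction, up to 5 members past the threshold whose counts average 50 or more, or the 3 with the smallest p, the 5 highest and lowest levels per length, and members named for their roles. The single values of some members that this rule names are not reported here. The members and gene lists were chosen with earlier results of these data known. DESeq2 1.42.0, limma 3.58.1 voom, other scalings, filters and terms, and libraries left out were tried as alternatives.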

Additional observations from a re-analysis of the deposited data

Results flagged for a closer look

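Of 140 sets of values checked, each from the libraries of 1 group, 11 had a library far from the others of its group by Dixon's criterion, where chance gives about 1 in 20. At 2 weeks Rpl24 was at 3.53 CPM in WT m2 against 1 to 1.32 CPM in the other WT libraries, and at 6.82 CPM in KO f1 against 1.18 to 1.68 CPM. Rps24 was at 888.1 CPM in WT m2 against 827.8 to 836.2 CPM, and Rpl26 at 757.9 CPM in KO f1 against 591.3 to 611 CPM. Rpl39l was at 4.31 CPM in KO m2 and at 0 in the other KO libraries, and Rpl3l at 25.7 CPM in KO f1 and at 0 in the others. At 4 weeks Rpl39l was at 1.96 CPM in WT m1 against 0 to 0.237 CPM, and Rpl3l at 0.385 CPM in WT f against 0 to 0.0408 CPM. Rps18 was at 597.3 CPM in WT m3 against 478.7 to 506.6 CPM, Rpl23 at 629.5 CPM in KO m2 against 522.5 to 531.6 CPM, and Rps6 at 507.5 CPM in KO m1 against 652.6 to 655.9 CPM. KO f1 of 2 weeks accounts for 3 of the 11 and has the highest share of counts in members; the cause was not tested.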

How the results depend on the processing

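No member was called in either KO comparison under any alternative run, with 1 exception: DESeq2 at 2 weeks called 3 members, Rps19 (0.45), Rpl17 (0.68) and Rps24 (0.26, log2 fold changes). With 1 library left out at a time the median KO effect ran from 0.21 to 0.32 at 2 weeks (large subunit 0.20 to 0.32, small 0.21 to 0.29) and from 0.15 to 0.26 at 4 weeks, with 72 to 75 and 74 to 76 members above 0. The 2-week medians moved by more than the SD of the WT libraries under several settings, to 0.22 with voom (large 0.22, small 0.22), 0.33 with upper quartile scaling (0.33, 0.32), 0.31 without KO m2 and m3 (0.31, 0.29), 0.23 in males (large 0.22) and 0.29 in females (0.30, 0.28). The KO minus WT share of counts ran from 0.629 to 1.14 percentage points at 2 weeks and from 0.512 to 0.772 at 4 weeks with 1 library left out, and was 1.35 and 0.732 with mitochondrial genes out of the library total. Rpsa at 2 weeks turned to -0.0083 without KO m2 and m3 and to -0.019 in females alone, and ran from -0.0566 to 0.137 with 1 library left out. At 4 weeks Rpl13a turned to 0.0342 with upper quartile scaling, 0.000122 with TMM free of ribosomal and mitochondrial genes, 0.0315 without the sex term, 0.054 with the replicate block in males and 0.037 in males alone, and ran from -0.11 to 0.0698 with 1 library left out. Rpl5 turned to -1.35e-05 with DESeq2, -3.88e-05 with its size factors in edgeR, -0.0186 with voom, -0.00028 with no filter, -0.0355 with the stromal term, -0.00224 with the block and -0.00998 in males alone, and ran from -0.0818 to 0.0808. The 90th over the 10th percentile of levels per length in WT at 4 weeks was 6.8 with all annotated exons as length. Whether the numbers in the titles pair the samples is not known. Deviations of same-numbered libraries correlated at -0.0237 to 0.0493 at 2 weeks and 0.0194 to 0.194 among 4-week males. For differently numbered libraries the values were -0.0688 to 0.073 and -0.133 to 0.0878, so m3 with m3 of 4 weeks was highest. Such correlations cannot exclude a pairing. With the replicate block 0 members were called at either time, with medians of 0.26 (75 of 76 above 0) and, in males, 0.13 (74 of 77).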
